A study of Homo sapiens with 8 samples.

Results

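The TSPY-like genes TSPYL1, TSPYL2, TSPYL4, TSPYL5 and TSPYL6 were examined for binding of the transcription factor RFX7. They are 5 of 20037 protein-coding genes placed on the chromosomes, and every RFX7 peak within 10 kb of their gene bodies was collected from both peak lists. The rule returned 2 peaks of the 1790 listed. The study used RPE-1, a telomerase-immortalised human cell line from the retinal pigment epithelium, for chromatin immunoprecipitation and sequencing (ChIP-seq) with an antibody to RFX7. For 24 h, cells had received either 10 µM Nutlin-3a, which keeps MDM2 from p53 and so raises p53, or DMSO as the solvent control. There were 2 ChIP samples and 2 of input chromatin per treatment. No replicate resolves any value below, because the deposited lists are 1 for each treatment, with 1234 peaks for Nutlin-3a and 556 for DMSO. Library depth is unknown, and RPE-1 is a single cell line, so nothing here speaks to other cells.

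RFX7 belongs to the regulatory factor X family, whose members share a winged-helix domain that recognises the X-box, a sequence built from copies of a short half-site in opposite orientation. RFX7 has been described as acting downstream of p53. The TSPY-like genes are relatives of the testis-specific Y-encoded gene TSPY, and their proteins carry the nucleosome assembly protein (NAP) domain found in histone chaperones such as NAP1L1 and SET. TSPYL2, also known as CDA1 and DENTT, is a nuclear protein known for restraining cell growth and for its link to the adaptor kinase CASK. TSPYL5 is known as a partner of the deubiquitinase USP7, and loss of TSPYL1 in people causes sudden infant death with dysgenesis of the testes.

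The sequences next to the starts are shown first because the positions of the peaks and of the sites searched below turn on them. All come from RefSeq, build GRCh38.p14, and are written along the gene's strand, ending at the base before its start. For TSPYL1 and TSPYL4 the stretch runs back to the nearest start of DSE, a gene that reads the other way, and for TSPYL2 it runs back 250 bases. Capitals mark a form of 10 bases common to TSPYL1 and TSPYL4, GTTGC and ATGG with any base between them. They also mark the CCAAT box, the motif of the factor NF-Y, on either strand (as ATTGG on the other).
TSPYL1, chr6:116279931-116280085, minus strand: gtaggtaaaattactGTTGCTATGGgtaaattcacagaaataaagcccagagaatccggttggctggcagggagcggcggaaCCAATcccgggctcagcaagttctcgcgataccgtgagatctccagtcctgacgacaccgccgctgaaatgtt
TSPYL4, chr6:116254076-116254170, minus strand: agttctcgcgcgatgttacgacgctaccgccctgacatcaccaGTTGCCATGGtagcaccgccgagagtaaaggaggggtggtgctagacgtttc
TSPYL2, chrX:53082117-53082366, plus strand: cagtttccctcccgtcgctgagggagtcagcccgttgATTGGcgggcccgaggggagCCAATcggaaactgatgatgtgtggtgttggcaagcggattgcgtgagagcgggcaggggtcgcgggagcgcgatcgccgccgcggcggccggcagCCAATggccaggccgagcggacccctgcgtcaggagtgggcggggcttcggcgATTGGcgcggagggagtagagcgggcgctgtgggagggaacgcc

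After Nutlin-3a, TSPYL1 and TSPYL2 had 1 RFX7 peak each within 10 kb, and both peaks were at the gene's start. TSPYL4, TSPYL5 and TSPYL6 had none. The 2 of 5 genes stand beside a background of 270 of 20037 protein-coding genes (1.35%) with a Nutlin-3a peak within 10 kb. In the DMSO list 0 of 5 genes had a peak, beside 13 of 20037 protein-coding genes (0.0649%). The genes were chosen with these peaks known, so the counts are a description and were not tested. A gene without a listed peak was not called in that list, which is not a measurement of no binding.

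TSPYL2 (gene ID 64061) lies on chromosome X, from 53082367 to 53088540 on the plus strand. Its peak ran from 53082099 to 53082341, 243 bp wide, with a fold enrichment of 8.60, a −log10 p of 38.9 and a −log10 q of 34.0, all as deposited by the authors. The peak was wholly upstream of the gene, ending 26 bp before the first base, and its summit lay 142 bp upstream of the start, close to the middle of the peak at 147 bp. It overlapped 225 of the 300 bases of the promoter window used here, which spans 250 bases before and 50 after the start. The nearest other protein-coding gene was GPR173, an orphan G protein-coupled receptor gene on the same strand, whose body ended 1484 bp from the peak and whose start was 33436 bp from the summit.

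TSPYL1 (gene ID 7259) lies on chromosome 6, from 116274858 to 116279930 on the minus strand. Its peak ran from 116279443 to 116280286, with a fold enrichment of 6.47, a −log10 p of 38.5 and a −log10 q of 33.6. At 844 bp it was the wider of these peaks. It covered the start from 356 bp upstream to 487 bp inside the gene, and the whole promoter window fell within it. The deposited summit was 19 bp from the left end of the peak, at 2.25% of its width, and so 468 bp inside TSPYL1, whereas the middle of the peak was 66 bp inside. Gene-end peaks are those with a summit no more than 1000 bp from the first or last base of a protein-coding gene, and of the 56 such Nutlin-3a peaks at least 300 bp wide, 15 had the summit in the leftmost 10%. Distances at TSPYL1 are therefore given from the summit and from the middle of the peak.

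The TSPYL1 peak also covered a start of a second gene. TSPYL1 lies inside the body of DSE, which encodes dermatan sulfate epimerase, an enzyme of glycosaminoglycan synthesis. DSE reads from the plus strand, and RefSeq lists 4 starts for it. Its second start, at 116280086, was 156 bp from that of TSPYL1, facing away from it, and fell within the peak. Its first start, at 116254171, was 25.3 kb from the peak. The remaining DSE starts were 89.5 and 90.7 kb from it. The peak thus sat on a pair of divergent starts, and the list alone cannot assign it to TSPYL1 or to DSE.

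TSPYL1 and TSPYL4 are neighbours but did not share a peak. TSPYL4 (gene ID 23270) lies at 116249964 to 116254075 on chromosome 6, on the same strand as TSPYL1, and 20.8 kb separate their bodies. The TSPYL1 peak was 25.4 kb from the body of TSPYL4, outside the 10 kb limit, and no other Nutlin-3a peak lay within 100 kb of TSPYL4. The start of TSPYL4 is itself divergent with DSE: the first DSE start is 96 bp away. Both TSPYL genes on chromosome 6 therefore begin opposite a DSE start, and the Nutlin-3a list held a peak at the TSPYL1 pair and none at the TSPYL4 pair.

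**Figure D1:**
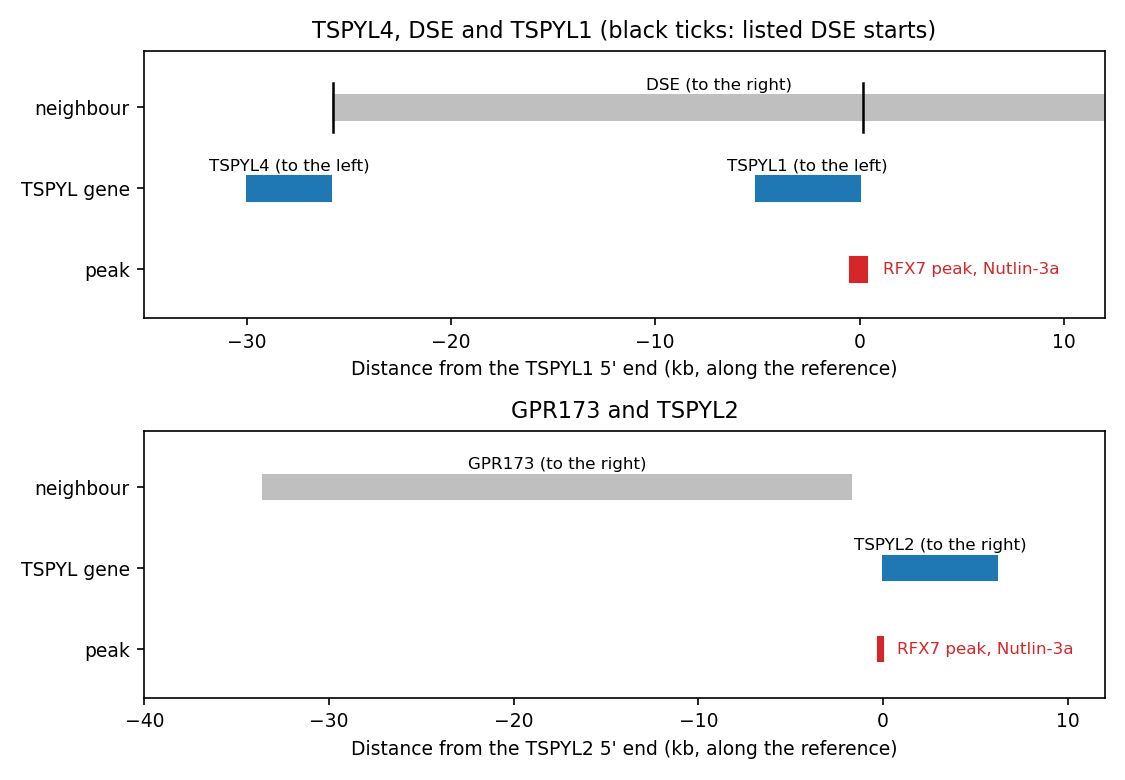
Map of the TSPYL4, DSE and TSPYL1 stretch (top) and of GPR173 and TSPYL2 (bottom), with distance in kb from the start of TSPYL1 or TSPYL2 along the reference. Blue bars are TSPYL genes, grey bars neighbours (DSE runs on beyond the right edge), red bars the Nutlin-3a peaks and black ticks DSE starts. The peak on chromosome 6 sits at the TSPYL1 start and is 25.4 kb from TSPYL4.

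TSPYL6 and TSPYL5 were further from any peak. TSPYL6 (gene ID 388951), at 54253178 to 54256229 on chromosome 2, lies on the minus strand within the body of ACYP2, an acylphosphatase gene. Its nearest Nutlin-3a peak was 199.8 kb away (54456035 to 54456618, 4.37-fold, −log10 p 19.8). The summit of that peak was 88 bp from an end of SPTBN1, which encodes a beta spectrin. TSPYL5 (gene ID 85453), at 97273488 to 97277928 on chromosome 8, had its nearest Nutlin-3a peak 2.32 Mb away. That peak (94949205 to 94950046, 4.35-fold, −log10 p 145) had its summit 146 bp from an end of TP53INP1, a p53-inducible gene. Both of these nearest peaks were at the ends of other protein-coding genes.

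No TSPYL gene had a DMSO peak in its surroundings. For TSPYL2 the nearest was 5.45 Mb away on chromosome X (58535856 to 58535956, 5.36-fold). For TSPYL1 and TSPYL4 it was the same peak, 27.2 Mb distant (89081629 to 89081828, 4.94-fold), whose nearest protein-coding gene end was that of PNRC1, a nuclear receptor coactivator. For TSPYL5 and TSPYL6 the distances were 13.6 and 16.2 Mb. Neither TSPYL peak of the Nutlin-3a list overlapped a DMSO peak. Less RFX7 on the DNA and a less sensitive DMSO experiment cannot be told apart from these lists.

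The wider relatives of the family were without peaks within 10 kb. Among 7 genes for nucleosome assembly proteins and the SET histone chaperone group (NAP1L1 to NAP1L5, SET and SETSIP), 0 had a peak within 10 kb in either list. SET, which encodes a histone chaperone and phosphatase inhibitor, had the nearest Nutlin-3a peak of these, at 75.5 kb, followed by NAP1L4 at 244.4 kb. CASK, USP7 and REST, the last a repressor of neuronal genes linked to TSPYL2, also had 0 peaks within 10 kb. Their nearest Nutlin-3a peaks were 3.74 Mb, 217.3 kb and 4.77 Mb away. With a background of 1.35% of genes, no peak among 10 genes is close to what the list gives in general.

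**Figure D2:**
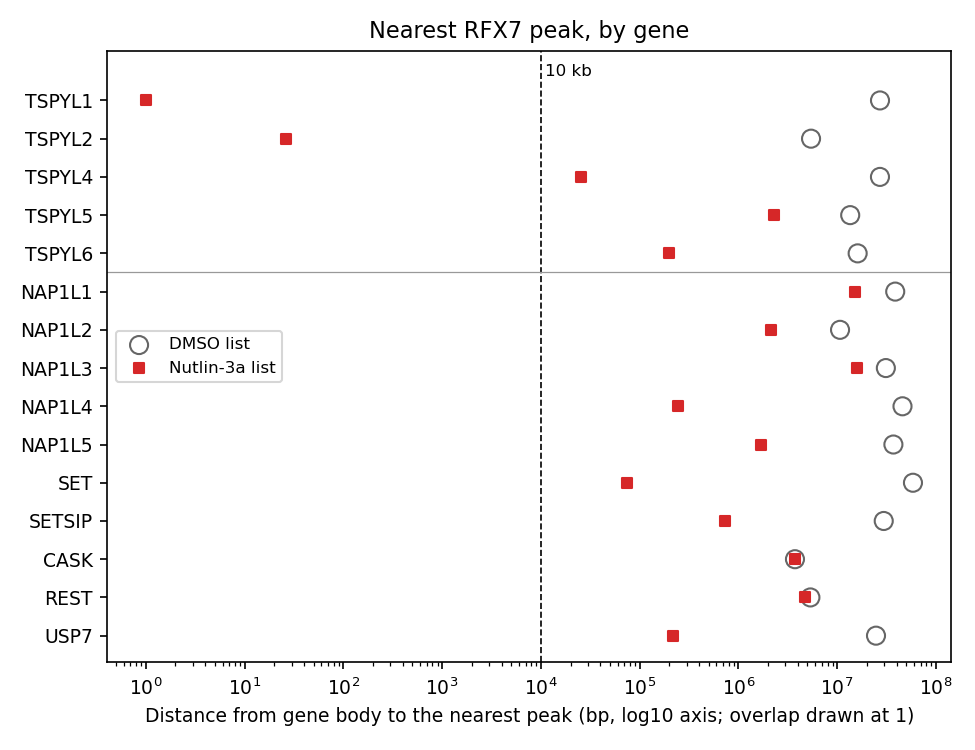
Distance in bp (log10 axis) from each gene body to the nearest peak of the Nutlin-3a list (red squares) and the DMSO list (open grey circles), with TSPYL genes above the line and their relatives and partners below. Overlap is drawn at 1, the dashed line is the 10 kb limit, and only the Nutlin-3a points of TSPYL1 and TSPYL2 (26 bp) lie left of it.

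Within the Nutlin-3a list the TSPYL2 peak had the larger fold enrichment, 8.60 against 6.47, while the −log10 p values, 38.9 and 38.5, were close. Without replicates the error of either difference is unknown. The median of all 1234 peaks was 2.77-fold (interquartile range 1.94 to 3.90) with a −log10 p of 23.8 (11.1 to 49.3). By fold enrichment TSPYL2 ranked 39 and TSPYL1 ranked 84 of 1234. By −log10 p they ranked 392 and 398, between the median and the upper quartile of the list.

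That difference between the measures narrowed among comparable peaks. Of the Nutlin-3a peaks, 425 lay outside clusters, meaning that fewer than 5 other listed regions were within 500 kb. Both TSPYL peaks belonged to these, with 0 other regions in that distance. Among the 425, TSPYL2 ranked 34 by fold enrichment and 78 by −log10 p, and TSPYL1 ranked 69 and 80. Among the 101 gene-end peaks TSPYL2 ranked 19 and 35, and TSPYL1 ranked 31 and 37. The median of those 101 was 5.08-fold (4.17 to 7.23) with a −log10 p of 27.2 (14.8 to 60.3), so both TSPYL peaks were above the median of gene-end peaks, and only TSPYL2 was above the upper quartile of fold enrichment.

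The peaks differed most in width. The median width of the 101 gene-end peaks was 345 bp (interquartile range 214 to 549 bp), and the TSPYL1 peak ranked 9 and the TSPYL2 peak 69 of 101, widest first. On chromosome X the Nutlin-3a list held 22 peaks, 13 of them outside clusters and 3 at a protein-coding gene end, of which TSPYL2 was 1. Chromosome 6 also held 22, with 21 outside clusters and 4 at a gene end.

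**Figure D3:**
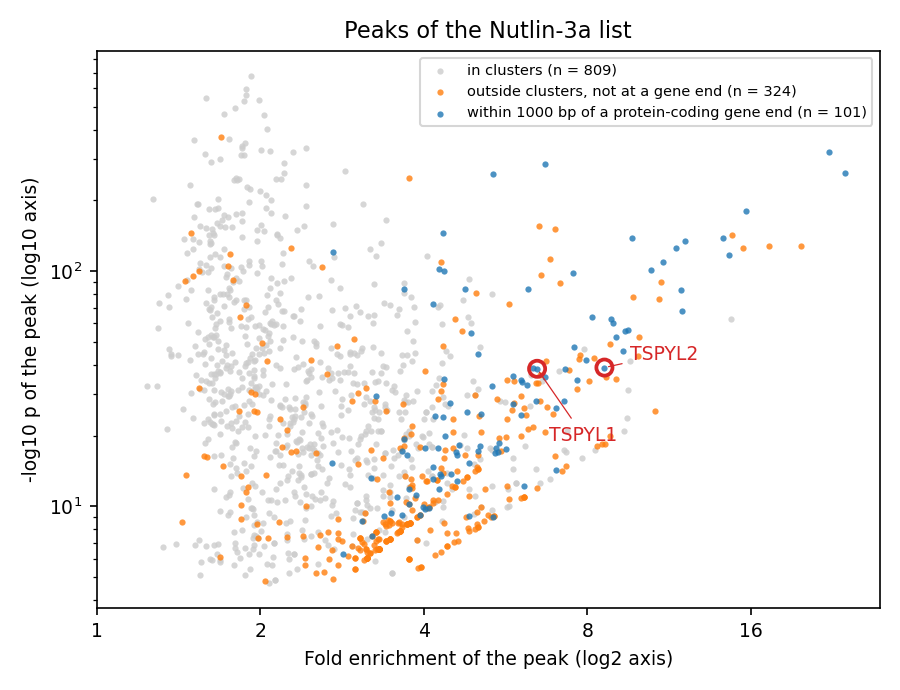
Fold enrichment (log2 axis) against −log10 p (log10 axis) for the 1234 Nutlin-3a peaks, 1 point a peak, coloured by class. Red circles mark TSPYL1 (6.47-fold) and TSPYL2 (8.60-fold), which lie within the band of gene-end peaks.

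The peaks most alike in both measures were taken from the other gene-end peaks of the Nutlin-3a list. Nearest to TSPYL1 was the peak at RFX5 on chromosome 1 (151346976 to 151347524, 6.34-fold, −log10 p 38.9), which encodes the RFX subunit required for MHC class II expression. The next was at DYRK1B on chromosome 19 (39833463 to 39833877, 6.69-fold, −log10 p 35.5), a kinase gene. Nearest to TSPYL2 were the peaks at CKS2 on chromosome 9 (89310940 to 89311347, 7.97-fold, −log10 p 42.1), which encodes a regulatory subunit of cyclin-dependent kinases, and at PPRC1 on chromosome 10 (102119512 to 102119717, 7.27-fold, −log10 p 38.2), a transcriptional coactivator gene. Likeness here is the distance in log2 fold enrichment and log2 of −log10 p within 1 list.

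The promoter windows were then searched, on both strands, for the RFX half-sites GTTGCC and GTTGCT, and for a complete X-box, a form of 14 bases with 10 fixed letters in which both half-sites face each other. RefSeq promoter entries were matched for 4 of the 5 genes. The comparison set was 22078 windows of 300 bases at starts of protein-coding genes, some of which overlap one another. A Nutlin-3a peak overlapped 107 of them (0.485%), including those of TSPYL1 and TSPYL2. A DMSO peak overlapped 0 of them (0%).

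Only the windows were searched, so 300 of the 844 bases of the TSPYL1 peak were covered, without its deposited summit, and 225 of the 243 bases of the TSPYL2 peak. TSPYL1 held 1 half-site, GTTGCT, inside its peak, beginning 140 bases upstream of the start. That site lay 603 bp from the deposited summit and 201 bp from the middle of the peak. TSPYL4 held 1, GTTGCC, beginning 52 bases upstream, at a start with no peak. TSPYL2 held neither form in its window although a peak covered 225 bases of it, and TSPYL6 held neither and had no peak. Across all windows GTTGCT was present in 12.4% and GTTGCC in 12.6%, and in the 107 windows with a Nutlin-3a peak in 39.3% and 26.2%, a difference that was not tested. Among the 4 windows a half-site was thus present at 1 of 2 starts with a peak and at 1 of 2 without. A match describes these letters and is not evidence of a bound site.

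The half-sites of TSPYL1 and TSPYL4 belong to a common longer form, the 10 bases described above. It was made, after the sequences had been seen, from the letters that these windows share from the half-site on. It reads GTTGCTATGG at TSPYL1 (116280061 to 116280070) and GTTGCCATGG at TSPYL4 (116254118 to 116254127), in capitals in the sequences above. Each copy lies between its TSPYL gene and the facing DSE start: at TSPYL1 it is 130 bases from the TSPYL1 start and 15 from the DSE start, and at TSPYL4 42 and 43 bases. The form was present in 196 of 22078 windows (0.888%) and in 5 of the 107 with a peak (4.67%). Its matches at TSPYL1, TSPYL4 and DSE were fixed in advance, because it was taken from those sequences. Both shares include such matches, and their difference was not tested. Those 5 were the windows of TSPYL1 and DSE, which share the same copy, and those of MAPRE3, COQ10A and KIAA0753, named after their values were seen. MAPRE3 encodes a microtubule end-binding protein, COQ10A a coenzyme Q-binding protein and KIAA0753 a protein of the centriole.

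The complete X-box, in the form that leaves out GTTGCT, was absent from all 4 TSPYL windows. It occurred in 114 of 22078 windows (0.516%) and in 0 of the 107 with a peak. With a share that small, 0 of 107 is close to what all windows give. TSPYL4 came nearest among the family, with GTTGCCATGGTAGC matching 9 of the 10 fixed letters, and 2.93% of windows matched at least as many. TSPYL1 matched 7 letters at best, and 65.4% of windows matched at least as many. TSPYL2 and TSPYL6 matched 6, a level reached by 99.5% of windows. Among the 107 windows with a peak, 1.87% (2 windows) reached the level of TSPYL4. The level of TSPYL1 was reached by 68.2% and that of TSPYL2 and TSPYL6 by 99.1%. The window with the closest match, that of TSPYL4, was without a peak. Of those with the poorest, TSPYL2 had a peak and TSPYL6 had none.

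The CCAAT box separated the members differently. TSPYL2 held 4 copies, all inside its peak, the nearest of them 45 bp from the summit. TSPYL1 held 1, 537 bp from the deposited summit and 135 bp from the middle of the peak. TSPYL4 and TSPYL6 held none. The box was present in 34.7% of all windows and in 67.3% of the 107 with a peak. It is short, was added after the sequences had been seen, and its presence at these starts was not tested.

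In G and C content and CpG count TSPYL2 stood apart from the others. Its window had 68.7% G and C with 32 CpG dinucleotides, above the 62.3% and 21 that were the medians of all windows. TSPYL1 had 54.0% with 21 CpG, TSPYL4 50.3% with 19 and TSPYL6 49.0% with 14. In G and C content the starts with a peak thus fell on both sides of the median, and TSPYL4 was closer to TSPYL6 than to TSPYL1. The longest run shared by the windows of TSPYL1 and TSPYL4 was of 10 bases, CTTCCAGACT, found in 0.113% of all windows. It began at −188 bp from the start of TSPYL1 and −176 bp from that of TSPYL4, minus being upstream. Both positions were past the facing DSE starts, 156 and 96 bp away, and so inside the body of DSE. Other pairs shared runs of like length: TSPYL2 and TSPYL6 had GAGTGGGCGG, of 10 bases (0.833% of windows), and TSPYL4 and TSPYL6 had GACGCTACC, of 9 bases (0.136%). The other 3 pairs shared 7 or 8 bases.

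**Figure D4:**
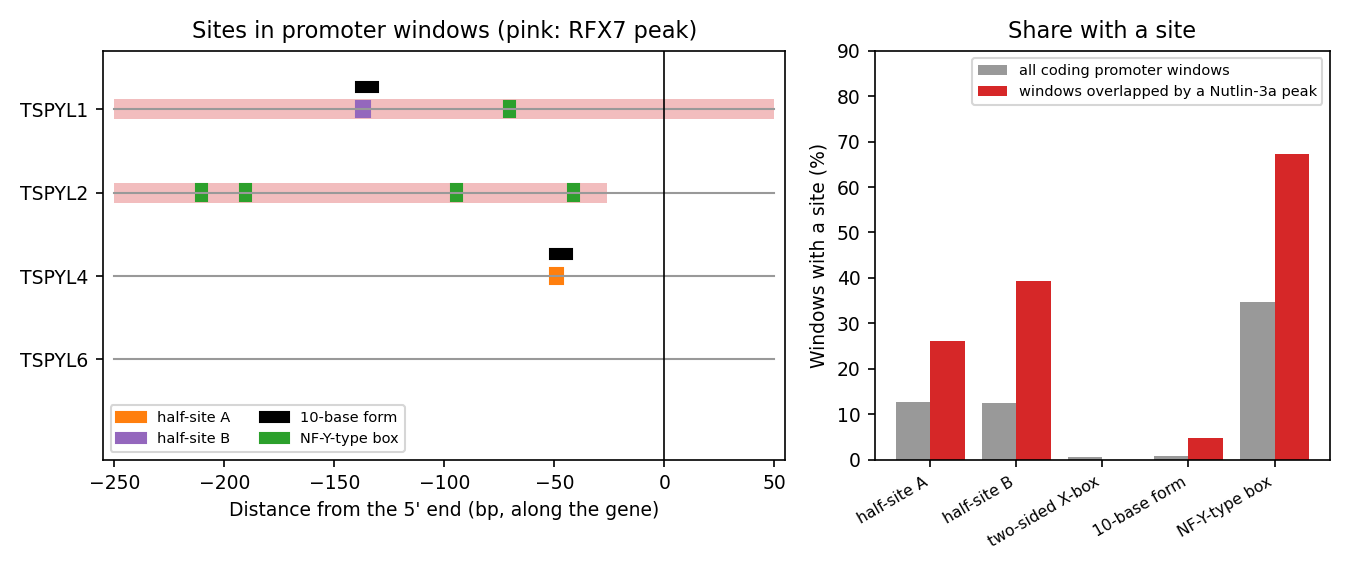
Left, sites in the promoter windows of 4 TSPYL genes by distance from the start in bp, with the part covered by a Nutlin-3a peak in pink: half-site A (GTTGCC) is present in TSPYL4, half-site B (GTTGCT) in TSPYL1, the longer form of 10 bases in both and the NF-Y-type box in TSPYL1 and TSPYL2. Right, percent of all 22078 windows (grey) and of the 107 overlapped by a Nutlin-3a peak (red) with a site. Values run from 0.516% and 0% for the complete (two-sided) X-box to 34.7% and 67.3% for the NF-Y-type box.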

How the data were processed

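RFX7 ChIP and input libraries of RPE-1 cells formed 4 groups of 2 samples, taken from the titles. The analysed values were 2 peak lists, 1 for each treatment. Per the submitters' processing notes the build was hg38 and the tools included Trimmomatic 0.39, SAMtools 1.10, MACS2 2.2.7.1 and bedtools 2.29.2. The aligner, the control used for peak calling and the handling of replicates are not given in the sources used here. The authors deposited, in the narrowPeak layout, a fold enrichment per peak, −log10 p-values and −log10 q-values, a summit offset and a score, which was not used. What the fold enrichment is relative to is not stated. Peak positions were converted to 1-based, and a distance is the gap between peak and gene body in RefSeq GRCh38.p14 (Python 3.11.15, pandas 2.3.3). The distance and motif code was tested on simulated data. No test was made: each treatment has 1 list, depth is unknown, and members, gene lists and settings were chosen with earlier results of these data known. Genes named in the text are the 5 members, coding genes within 10 kb of their peaks, genes at the nearest peaks of members without one in a list, the 2 most alike gene-end peaks for each peak, and 10 listed relatives and partners. MAPRE3, COQ10A and KIAA0753 fall outside this rule and were named after their values were seen. Alternatives changed distance, peak point, q-value limit, overlap and ranking. The protein comparison was not run.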

Additional observations from a re-analysis of the deposited data

How the results depend on the processing

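No paired analysis was possible because the lists carry no replicate values, and for the same reason no replicate could be left out in turn. The counts of TSPYL genes with a peak were 2 for Nutlin-3a and 0 for DMSO with 1 kb or 5 kb in place of 10 kb, from the summit or the middle of the peak, and with −log10 q of at least 5. Measured from transcription starts, which was run for Nutlin-3a only, 2 genes had a peak. Within 50 kb, 3 had one for Nutlin-3a, since TSPYL4 then counts the TSPYL1 peak, and TSPYL1 and TSPYL4 were near 1 common peak in place of 0. No peak was shared with DMSO by 50% overlap or by summits within 1000 bp.

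The share of protein-coding genes with a Nutlin-3a peak was 1.03% within 1 kb, 1.16% within 5 kb, 2.85% within 50 kb and 1.09% with −log10 q of at least 5. For DMSO it was 0.205% within 50 kb. Ranked by −log10 p, TSPYL1 fell from 84 to 398 and TSPYL2 from 39 to 392, and outside clusters they ranked 69 and 34 by fold enrichment. Measured from the middle of the peak, the distance to the start was 66 in place of 468 bp for TSPYL1 and 147 in place of 142 bp for TSPYL2. The causes were not tested. Unknown depth limits every absence of a peak.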
